A study of Macaca fascicularis with 6 samples.

Results

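Cartilage resists compression because large proteoglycans are held on long chains of hyaluronan. Aggrecan and versican are members of the lectican family and bind hyaluronan through their N-terminal domain, link proteins of the HAPLN family clamp this contact, hyaluronan synthases extrude the chain through the plasma membrane, and CD44 holds it at the cell surface. In cartilage, aggrecan is the main proteoglycan of the mature matrix and versican is known from mesenchymal condensations and fibrous tissue.

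The 7 genes described here are the lecticans *ACAN* and *VCAN*, the link proteins *HAPLN1* and *HAPLN3*, the hyaluronan synthases *HAS2* and *HAS3*, and the receptor *CD44*. They were chosen by name, and all 7 were listed among the 13950 and 14020 genes of the 2 deposited count matrices. In a RefSeq gene table of the cynomolgus monkey (T2T-MFA8v1.1), used for names and neighbors only, *ACAN* lies next to *HAPLN3* and *VCAN* lies next to *HAPLN1*, so each lectican has a link protein gene as its neighbor.

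Single cells of 5 conditions were sequenced by TAS-Seq, a whole-transcriptome method in which cells are captured with BD Rhapsody beads. Undifferentiated iPS cells of the cynomolgus monkey (cyiPSC) were the first condition and cartilage organoids made from them (cyiPS-Cart) before transplantation were the next. Organoids recovered after transplantation into chondral defects of the knee, the animals' intact articular cartilage (cyAC), and fibrous tissue that formed in defects left empty (cyFT) were the other 3. The donor cells came from 1 cyiPSC line with homozygous MHC haplotypes and an EGFP gene under a constitutive promoter, and the organoids were differentiated with BMP2, TGF-β1 and GDF5. The last 3 conditions came from knees of male monkeys aged 3 to 4 years, 4 months after surgery, and of these only the recovered organoids were an allogeneic transplant. The label of the post-transplant sample names a wild type genotype, whereas reads of the EGFP transgene were found in all 320 of its cells and in 0 of 320 cells of cyAC and cyFT, which allows a share of cells with such reads of up to 0.938%, 3 counts of the total.

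Each condition is 1 sample. By the methods, transplanted sites of each monkey were combined for sequencing, and how many monkeys contributed to each library is not given there. No test between conditions was therefore possible. Values are summed read counts per 1000000 reads (CPM) or shares of cells with at least 1 read, and every interval in parentheses is an exact 95% interval (Poisson for levels, Clopper-Pearson for shares, conditional for ratios) that covers counting error only. A larger matrix held 2500 cyiPSCs and 3527 pre-transplant cells, which shared 1 library, with medians of 143075 and 59249 reads per cell. A matrix of 4 conditions held 320 cells of each condition other than cyiPSC, with medians from 27499.5 to 80335.5 reads, and 300 of its pre-transplant cells were also in the larger matrix. Post-transplant cells had a library to themselves and cyAC and cyFT cells shared another, so that library and condition cannot be told apart in any comparison across these libraries. No cell barcode number was shared between cyiPSC and pre-transplant cells, or between any of the conditions in the matrix of 4 conditions.

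The labeled tissues were checked against marker genes. All 9 listed chondrocyte markers had reads in each of the 4 conditions, with summed levels from 33567 CPM in cyFT to 78106 CPM in post-transplant cells. All 8 fibroblast markers had reads in each, from 9010 CPM in cyAC to 72660 CPM in post-transplant cells. The fibrous tissue was at 47765 CPM for these, so they did not set it above the transplant. Macrophage markers summed to 675 CPM in cyFT and to between 4.18 and 24.5 CPM in the other 3 conditions of this matrix. Pan-immune markers summed to 329 CPM in cyFT against 4.09 to 31.0 CPM in the other 3. The 5 T cell markers summed to 25.3 CPM in cyFT and to between 13.6 and 19.3 CPM in the other 3, with *CD3E* and *TRAC* at 0 in cyFT and *TRAC* also at 0 in both organoid samples. The summed level of the pluripotency markers was 397 CPM in cyiPSC and 8.67 CPM in the pre-transplant cells of the larger matrix.

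Aggrecan reads were abundant in all 4 cartilage and repair tissues. The summed *ACAN* level was 5.31 CPM (5.09–5.53) in cyiPSC and 3427 CPM (3419–3434) in pre-transplant cells of the larger matrix. Among the 4 conditions of the other matrix it was 3479 CPM (3454–3505) before and 5559 (5532–5586) after transplantation, 5215 (5174–5256) in cyAC and 3366 (3332–3400) in cyFT. Post-transplant cyiPS-Cart and cyAC were thus the high pair, pre-transplant cyiPS-Cart and cyFT the low pair, and cyiPSC stood far below all of them. The median cell held 3121, 5225, 5089 and 3207 CPM in these 4 conditions, while the 10th percentile of cells lay at 1452, 2473, 1496 and 137 CPM. The fibrous tissue therefore differed from pre-transplant cyiPS-Cart in its lower tail and hardly in its median. Relative to *COL2A1*, the main collagen of hyaline cartilage, *ACAN* had 11.5 reads per 100 *COL2A1* reads in pre-transplant cells, 11.2 in post-transplant cells, 11 in cyAC and 16.2 in cyFT.

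Versican reads separated the organoids and fibrous tissue from intact cartilage. The *VCAN* level was 92.0 CPM (91.1–92.9) in cyiPSC and 322 CPM (320–324) in the pre-transplant cells of the larger matrix. In the matrix of 4 conditions it was 308 CPM (300.2–315) in pre-transplant cyiPS-Cart, 659 (650–668) in post-transplant cyiPS-Cart, 57.1 (52.9–61.6) in cyAC and 325 (314–336) in cyFT. Post-transplant cyiPS-Cart was the highest and cyAC the lowest, and the interval of pre-transplant cyiPS-Cart met that of cyFT at its upper end. Reads of *VCAN* were found in 85.0%, 92.2%, 26.9% and 49.4% of the cells. After every cell was thinned to 12191 reads, which left out 1, 0, 12 and 32 shallower cells, these shares were 70.2%, 82.5%, 19.2% and 41.3%, in the same order.

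The number of *VCAN* reads per 100 *ACAN* reads was 8.84 (8.62–9.07) in pre-transplant cells, 11.9 (11.7–12) in post-transplant cells, 1.09 (1.01–1.18) in cyAC and 9.65 (9.32–9.98) in cyFT. In cyiPSC it was 1733, a number that depends on how many *ACAN* zeros the authors' background correction made, which was not tested. The lowest *ACAN* count left in this library was 16 reads, and with every 0 at 15 reads the cyiPSC level of *ACAN* would be 93.4 CPM beside the 92.0 CPM of *VCAN*. Cells with reads of both lecticans made up 84.4% of pre-transplant cells, 92.2% of post-transplant cells, 26.6% of cyAC cells and 48.4% of cyFT cells. Cells with *VCAN* reads and no *ACAN* reads made up 82.0% of cyiPSCs and no more than 0.938% in any of the 4 conditions.

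The link protein that accompanies aggrecan, *HAPLN1*, varied less than the lecticans outside cyiPSC. Its level was 7.45 CPM (7.19–7.71) in cyiPSC and 2537 CPM (2530–2543) in pre-transplant cells of the larger matrix. Across the matrix of 4 conditions it was 2561 CPM (2539–2582) in pre-transplant cyiPS-Cart, 2459 (2441–2476) in post-transplant cyiPS-Cart, 3136 (3104–3168) in cyAC and 2325 (2296–2353) in cyFT. Intact cartilage was the highest and fibrous tissue the lowest, within a range of less than 2-fold. The reads were spread over the cells unevenly in cyFT, where the 10% of cells with most reads held 51.4% of them against 25.1%, 28.7% and 33.2% in pre-transplant cells, post-transplant cells and cyAC. The median cyFT cell had 1115 CPM, and medians in the other 3 conditions were 2496, 2271 and 2781 CPM. Per 100 *ACAN* reads there were 73.6, 44.2, 60.1 and 69.1 *HAPLN1* reads in pre-transplant cells, post-transplant cells, cyAC and cyFT, the lowest number being that of post-transplant cells.

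*HAPLN3*, a link protein with a wider tissue distribution, was at 59.1 CPM (58.3–59.8) in cyiPSC and 61.4 CPM (60.5–62.4) in pre-transplant cells of the larger matrix. It was at 53.2 CPM (50.2–56.4) in pre-transplant cells, 54.7 (52.1–57.5) in post-transplant cells, 43.4 (39.7–47.3) in cyAC and 93.4 (87.8–99.3) in cyFT of the other matrix. Fibrous tissue was the highest, and the 2 organoid samples had overlapping intervals. The number of *HAPLN3* reads per 100 *HAPLN1* reads was 4.02 in cyFT, 2.08 and 2.23 in pre- and post-transplant cells, and 1.38 in cyAC.

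Among the synthases, *HAS2* had its highest level in intact cartilage. *HAS2* was at 34.1 CPM (33.5–34.7) in cyiPSC and 84.1 CPM (82.9–85.2) in pre-transplant cells of the larger matrix. In the matrix of 4 conditions it was at 84.2 CPM (80.4–88.2) in pre-transplant cyiPS-Cart, 96.2 (92.7–99.8) in post-transplant cyiPS-Cart, 281 (272–291) in cyAC and 116 (109.7–122.5) in cyFT. The order from cyiPSC upward was organoids, fibrous tissue and intact cartilage, with none of these 4 intervals overlapping. Shares of cells with *HAS2* reads at equal depth were 30.7%, 31.9%, 46.4% and 21.9%, so cyFT had the fewest cells with reads and yet a level above both organoid samples. The 10% of cells with most reads held 85.6% of the *HAS2* reads of cyFT and between 59.8% and 63.9% in the other 3 conditions.

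*HAS3*, which encodes a second synthase, was close to the limit of detection. It had 408 reads in 131 cyiPSCs (5.24%) and 37 reads in 0.567% of pre-transplant cells, a level of 0.982 CPM against 0.154 CPM and a ratio of 6.38 (4.55–9.19). Over the other matrix it had 3, 1, 2 and 12 reads in 1, 1, 1 and 3 cells, from which no order can be read. *HAS1*, the third synthase gene, was not listed among the genes and is not analysed here.

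The receptor *CD44* ranged widely among the 4 conditions. It was at 14.1 CPM (13.7–14.5) in cyiPSC and 224 CPM (222–226) in pre-transplant cells of the larger matrix. In the matrix of 4 conditions it was at 226 CPM (220–233) in pre-transplant cyiPS-Cart, 15.8 (14.4–17.3) in post-transplant cyiPS-Cart, 138 (131–145) in cyAC and 519 (506–533) in cyFT. Fibrous tissue was the highest and post-transplant cyiPS-Cart the lowest. *CD44* reads were found in 215, 14, 80 and 147 of 320 cells, which is 67.2%, 4.38% (2.41–7.23), 25% and 45.9%. Post-transplant cells were the most deeply sequenced of the 4 conditions, and thinned to equal depth the shares of pre- and post-transplant cells were 54.2% and 4.06%.

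The authors' background correction bears on the *CD44* values. It set counts taken as background to 0, and the lowest *CD44* count left was 1 read in the library of pre-transplant cells, 8 reads in that of post-transplant cells and 6 reads in that of cyAC and cyFT. If every post-transplant cell listed at 0 had held 7 reads, 1 fewer than the lowest count left, a limit added after the data were seen and used for all raised zeros, the post-transplant level would be 87.6 CPM in place of 15.8, still under the 226 CPM of pre-transplant cells and the 519 CPM of cyFT.

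**Figure D1:**
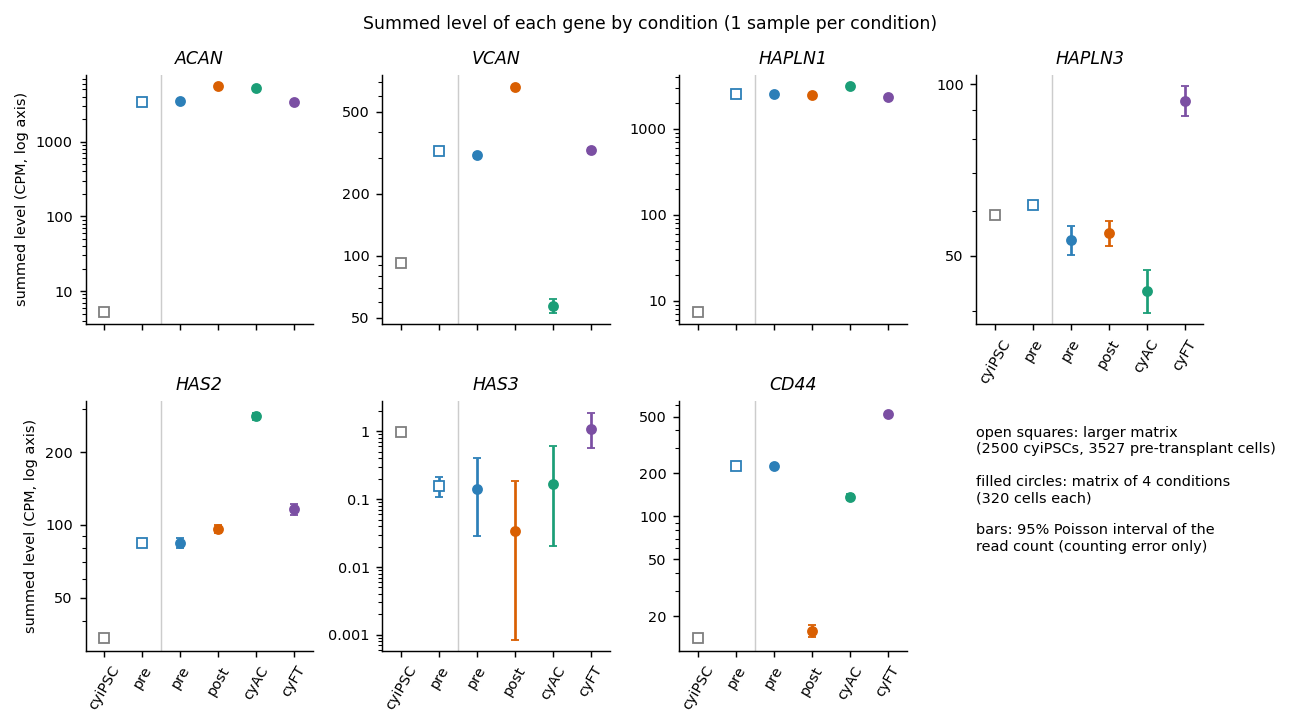
Summed level of each of the 7 genes (CPM, log axis, with a separate scale for each gene) in the larger matrix (open squares) and the matrix of 4 conditions (filled circles), with exact 95% Poisson intervals as bars. *CD44* is lowest in post-transplant cyiPS-Cart among the filled circles at 15.8 CPM, *VCAN* is lowest in cyAC at 57.1 CPM, and *HAS2* is highest in cyAC at 281 CPM.

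The plot of summed levels shows the pre-transplant cells in both matrices. The 320 pre-transplant cells of the smaller set lay close to the 3227 cells found only in the larger matrix, with *CD44* at 226 against 225 CPM, *ACAN* at 3479 against 3419 CPM and *HAPLN3* at 53.2 against 62.1 CPM.

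**Figure D2:**
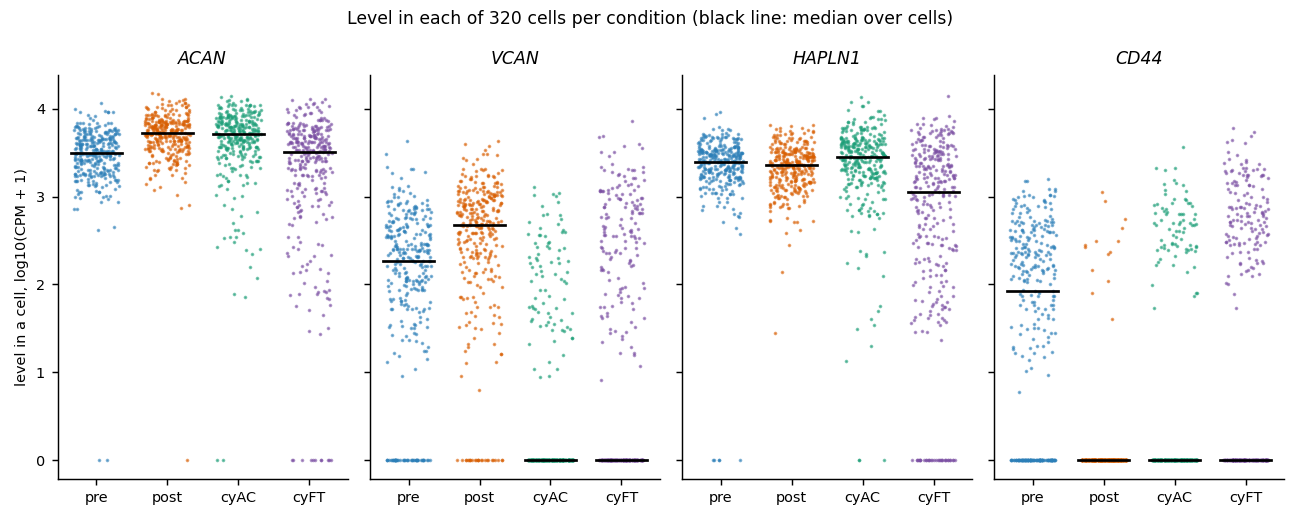
Level of *ACAN*, *VCAN*, *HAPLN1* and *CD44* in each of 320 cells per condition (log10 of CPM + 1, 1 point per cell, black line at the median over cells). *VCAN* has its median at 0 in cyAC and cyFT, *ACAN* and *HAPLN1* have a long lower tail in cyFT, and only 14 post-transplant cells lie above 0 for *CD44*.

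The plot of single cells shows that a listed 0 was common for *VCAN* and *CD44* and rare for *ACAN*. The reads of *CD44* in post-transplant cells came from 14 cells, in a library with no *CD44* count below 8 reads.

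The 5 comparisons were read against all genes of the same comparison. Genes entered with at least 50 CPM and reads in at least 25% of cells in either condition, and a gene was counted as higher or lower where the log2 ratio of CPM + 1 reached 1 or -1, a 2-fold difference. Of the 7 genes, 6 passed this filter in every comparison, and *HAS3* passed in none. The comparisons share samples, so they are not independent of each other.

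From cyiPSC to pre-transplant cyiPS-Cart, 5 of the 6 genes were higher and 0 were lower, where 18.4% of 4684 genes were higher and 38.5% lower. The log2 ratio was 9.09 for *ACAN*, 8.23 for *HAPLN1*, 3.90 for *CD44*, 1.80 for *VCAN* and 1.28 for *HAS2*. The ratios of levels were 646 (619–674) for *ACAN*, 341 (329–353) for *HAPLN1*, 15.9 (15.5–16.4) for *CD44*, 3.50 (3.46–3.54) for *VCAN* and 2.47 (2.41–2.52) for *HAS2*, and *HAPLN3* stayed at 1.04 (1.02–1.06). The 2450 cyiPSCs without reads of *COL2A1* or *COL1A1*, 98% of them, held 40.5% of the *ACAN* and 52.5% of the *HAPLN1* reads of cyiPSC. The levels in these cells were 2.22 and 4.04 CPM, so few cells bear on these 2 ratios. Both conditions were in the same library. The lowest *ACAN* and *HAPLN1* counts left by the correction there were 16 and 21 reads, and with every 0 of cyiPSC at 1 read below these, the log2 ratios would be 5.18 and 4.33. With TMM scaling in place of CPM, the median log2 ratio of all genes moved from -0.63 to 0.25 and 30.8% of genes were higher and 16.8% lower, and the same 5 genes were higher.

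From pre- to post-transplant cyiPS-Cart, *VCAN* was higher and *CD44* lower, 1 gene each way, where 8.16% of 3421 genes were higher and 22.1% lower. *VCAN* was 2.14-fold higher (2.08–2.20) after transplantation. *CD44* was 14.3-fold (13.0–15.8) higher before it, a log2 ratio of -3.76 that 0.468% of the genes undercut, that was -5.09 under a stricter cell filter and that would be -1.36 with the post-transplant zeros raised as above. *ACAN* was 1.60-fold higher (1.58–1.61) after transplantation, and *HAPLN1* at 0.960 (0.949–0.971), *HAPLN3* at 1.03 (0.953–1.11) and *HAS2* at 1.14 (1.08–1.21) differed little. With TMM scaling the median log2 ratio of all genes moved from -0.39 to -0.12, 11.5% of genes were higher and 14.3% lower, and *HAPLN1* changed sign within 2-fold.

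Between post-transplant cyiPS-Cart and cyAC, 1 gene was higher in the transplant and 2 were lower, where 10.8% of 3235 genes were higher and 17.8% lower. *VCAN* was 11.5-fold higher (10.7–12.5) in the transplant, and 99.4% of the genes had a lower ratio. *HAS2* was 2.92-fold (2.78–3.07) and *CD44* 8.71-fold (7.86–9.67) higher in cyAC. With the post-transplant zeros raised, the *CD44* log2 ratio of -3.04 would be -0.65, within 2-fold, and under the stricter cell filter it was -4.37. *ACAN* at 1.07 (1.06–1.08), *HAPLN1* at 0.784 (0.774–0.794) and *HAPLN3* at 1.26 (1.14–1.40) were within 2-fold. TMM scaling moved the median log2 ratio of all genes from -0.13 to 0.02 here.

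Between cyFT and cyAC, from 1 library, 3 genes were higher in fibrous tissue and 1 was lower, where 7.06% of 3270 genes were higher and 3.73% lower. *VCAN* was 5.69-fold (5.24–6.19), *CD44* 3.77-fold (3.57–3.99) and *HAPLN3* 2.15-fold (1.94–2.40) higher in cyFT, the last with a log2 ratio of 1.09 near the threshold. The *CD44* log2 ratio of 1.91 would be 1.12 with the zeros of cyAC at 5 reads, 1 fewer than the lowest count left. In cyAC, *HAS2* was 2.42-fold (2.27–2.59), *ACAN* 1.55-fold (1.53–1.57) and *HAPLN1* 1.35-fold (1.33–1.37) higher than in cyFT. With TMM scaling the median log2 ratio of all genes moved from 0.11 to -0.10, 5.01% of genes were higher and 5.64% lower, and *HAPLN3* went to 0.91 on the log2 scale, within 2-fold.

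Between post-transplant cyiPS-Cart and cyFT, *VCAN* was higher in the transplant and *CD44* lower, where 7.85% of 3389 genes were higher and 21.4% lower. The *VCAN* ratio of 2.03 (1.96–2.10) lay at the threshold, and it was under 2-fold in 6 of 8 other settings, with log2 ratios from 0.73 to 1.32. *CD44* was 32.8-fold (29.9–36.1) higher in cyFT, with a log2 ratio of -4.95 that was -5.92 under the stricter cell filter and would be -2.55 with the zeros raised. *ACAN* was 1.65-fold (1.63–1.67) higher in the transplant, *HAPLN3* 1.71-fold (1.58–1.85) and *HAS2* 1.21-fold (1.13–1.29) higher in cyFT, and *HAPLN1* was at 1.06 (1.04–1.07). With TMM scaling, 13.9% of genes were higher and 13.6% lower in this comparison and the median of all genes moved from -0.29 to 0.09, with *ACAN* going past 2-fold at a log2 ratio of 1.02 and *HAS2* changing sign.

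**Figure D3:**
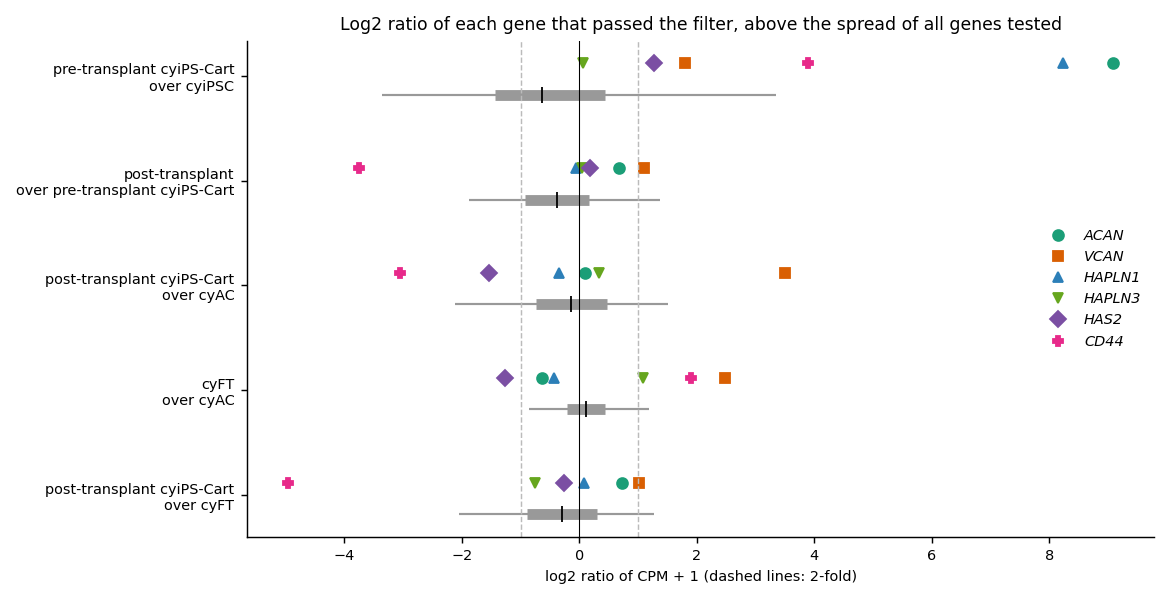
Log2 ratio of CPM + 1 for the 6 genes that passed the filter (colored symbols) in 5 comparisons, each above the spread of all genes tested (thin bar, 5th to 95th percentile, thick bar, 25th to 75th, tick, median). *CD44* is at -3.76, -3.04 and -4.95 in the 3 comparisons with post-transplant cyiPS-Cart as the first condition, and *VCAN* is at 3.51 over cyAC.

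The plot of ratios shows the 6 genes above the median of all genes from cyiPSC to pre-transplant cells and on both sides of it in the other 4 comparisons. Their median log2 ratio was 2.85 from cyiPSC to pre-transplant cells where the median of all genes was -0.63. In the comparisons of post- with pre-transplant cells, post-transplant cells with cyAC, cyFT with cyAC and post-transplant cells with cyFT it was 0.11, -0.13, 0.33 and -0.09, beside -0.39, -0.13, 0.11 and -0.29 for all genes.

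To see which cells carried these reads, cells were separated by the reads of *COL2A1* and *COL1A1*, the collagens of hyaline and fibrous tissue. The lowest counts of these genes left by the correction lay between 76 and 497 reads in the 3 libraries, so a cell without reads may have held fewer. Cells with *COL2A1* and no *COL1A1* reads (COL2A1-only cells) numbered 242 before and 265 after transplantation, 276 in cyAC and 84 in cyFT, each of 320. The opposite COL1A1-only cells were 19, 7, 16 and 170.

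In cyFT, versican and the synthase were high in opposite classes of cells. *VCAN* was at 710 CPM in the 170 COL1A1-only cells and at 10.7 CPM in the 84 COL2A1-only cells, a ratio of 66.3 (49.9–90.1), and 61.8% and 23.8% of the cells had reads. COL1A1-only cells held 85.4% of all *VCAN* reads of cyFT. *HAS2* was at 22.4 CPM in COL1A1-only and 239 CPM in COL2A1-only cells, and the latter held 83.2% of its reads. The separation was not complete, since 39 cells of cyFT had reads of both genes, of 158 with *VCAN* and 97 with *HAS2* reads.

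The other genes of cyFT fell between these extremes. *HAPLN1* was at 798 CPM in COL1A1-only and 4407 CPM in COL2A1-only cells, while *ACAN* was at 2963 and 3899 CPM, a ratio of 0.760. *CD44* was at 599 and 133 CPM, a ratio of 4.52 (4.13–4.95), or 701 and 191 CPM with zeros raised, and *HAPLN3* at 123 and 74.5 CPM, a ratio of 1.65. Aggrecan was thus nearly as high in the COL1A1-only cells of fibrous tissue as in its COL2A1-only cells, and its link protein was not. The COL1A1-only cells were shallower, with a median of 21830 reads against 47802.5, and 16 and 12 cells of the 2 classes held reads of at least 3 markers of other cell types. The part of these in the ratios was not tested.

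Intact cartilage had few COL1A1-only cells, and in these *ACAN* was low as well. In the 16 COL1A1-only cells of cyAC, *ACAN* was at 674 CPM and *HAPLN1* at 360 CPM, against 5718 and 3395 CPM in 276 COL2A1-only cells. *VCAN* was at 376 against 40.9 CPM, a ratio of 9.20 (7.75–10.9), *CD44* at 665 against 112 CPM, or 710 against 214 CPM with zeros raised, and *HAPLN3* at 155 against 38.0 CPM. *HAS2* was at 11 against 314 CPM, and COL2A1-only cells held 97.4% of its reads.

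In pre-transplant cyiPS-Cart of the larger matrix, 254 COL1A1-only cells were compared with 2588 COL2A1-only cells, a split of the larger matrix that, like that by *PRG4*, was added after the data were seen. *ACAN* was at 1329 against 4031 CPM, *HAPLN1* at 1262 against 2729 CPM, *VCAN* at 670 against 281 CPM and *CD44* at 598 against 132 CPM. These directions matched those in cyAC and cyFT. *HAS2* was at 73.9 against 84.9 CPM, a ratio of 0.871 (0.821–0.924), and in the matrix of 4 conditions, with 19 and 242 cells, at 110 against 88.9 CPM, a ratio of 1.24 (1.02–1.49), so it had no stable direction in pre-transplant cells.

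**Figure D4:**
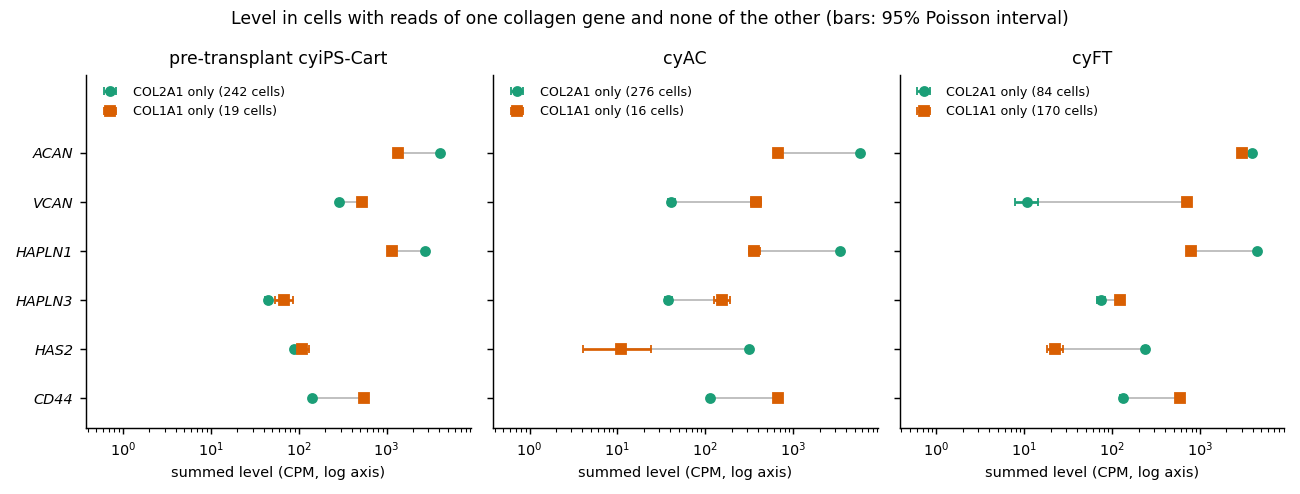
Summed level (CPM, log axis) of 6 genes in COL2A1-only cells (green circles) and COL1A1-only cells (orange squares) of pre-transplant cyiPS-Cart, cyAC and cyFT of the matrix of 4 conditions, with exact 95% Poisson intervals as bars. In cyFT *VCAN* is at 10.7 and 710 CPM in the 2 classes while *ACAN* is at 3899 and 2963 CPM.

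The plot by collagen status leaves out post-transplant cyiPS-Cart, which had 7 COL1A1-only cells. Those 7 cells held 64.0% of its *CD44* reads at 388 CPM, and its 265 COL2A1-only cells were at 5.90 CPM.

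Compared among COL2A1-only cells alone, a choice made after the values were seen, the difference in *VCAN* between fibrous tissue and intact cartilage turned over. *VCAN* was at 284, 547, 40.9 and 10.7 CPM in the COL2A1-only cells of pre-transplant cells, post-transplant cells, cyAC and cyFT, so that cyAC was 3.82-fold (2.83–5.26) higher than cyFT, both under the filter of 50 CPM. The transplant was 13.4-fold (12.1–14.8) above cyAC, 51.1-fold (38.5–69.3) above cyFT and 1.93-fold (1.86–1.99) above pre-transplant cells. *HAS2* in these cells was at 88.9, 100.4, 314 and 239 CPM. Intact cartilage was 3.13-fold (2.96–3.29) above the transplant and only 1.31-fold (1.23–1.41) above cyFT, no longer 2-fold, and cyFT was 2.38-fold (2.21–2.56) above the transplant. *HAPLN1* was at 2761, 2532, 3395 and 4407 CPM, so that cyFT was 1.30-fold (1.28–1.32) above cyAC, the reverse of the order over all cells. *CD44* in COL2A1-only cells was at 144, 5.90, 112 and 133 CPM, lowest in post-transplant cells. With listed zeros raised in this class, these levels would be 144, 79.1, 214 and 191 CPM, which leaves post-transplant cells the lowest but within 2-fold of pre-transplant cells, and turns the order of cyAC and cyFT.

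The *CD44* reads of cyFT had a further source in 33 cells without reads of either collagen. These cells had *CD44* at 2224 CPM, with reads in 84.8% of them, and held 43.6% of the *CD44* reads of cyFT, beside 45.1% in COL1A1-only and 10.3% in COL2A1-only cells. Of the 7 listed macrophage markers 7 had reads in these cells, with a sum of 6294 CPM against 28.9 CPM in COL1A1-only and 51.1 CPM in COL2A1-only cells, and 17 of the 33 held reads of at least 3 markers of other cell types. *ACAN* was at 248 CPM, *HAPLN1* at 68.2 CPM and *HAS2* at 6.20 CPM in them. Cells with reads of at least 3 such markers made up 15.3% of cyFT, and 16.25%, 9.69% and 10.9% of pre-transplant, post-transplant and cyAC cells. Such reads alone therefore do not name a cell type. Without the 49 such cells of cyFT, *CD44* was at 356 CPM there. Pre-transplant cells were at 220 CPM with their own such cells left out.

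Cells were also separated by *PRG4*, the lubricin gene of the cartilage surface. With pre-transplant zeros raised as above, the *PRG4* log2 ratio of post- over pre-transplant cells would be 0.69 in place of 1.26. It did not move with post-transplant zeros raised, nor did that of cyFT over cyAC with either raised. Only in the library of pre-transplant cells may a cell listed without *PRG4* reads thus have held some. *HAS2* was at 107 CPM in 227 post-transplant cells with *PRG4* reads and 58.8 CPM in 93 without, a ratio of 1.83 (1.65–2.04), and at 122 against 21.0 CPM in cyFT, a ratio of 5.81 (3.45–10.7). In pre-transplant cells the ratio was 1.70 (1.53–1.88) over the 320 cells of the matrix of 4 conditions and 0.925 (0.892–0.959) over the 3527 cells of the larger matrix, so it had no stable direction there. *HAPLN1* was at 2413 against 936 CPM in cyFT, and *VCAN* in the opposite order at 310 against 553 CPM. *ACAN* and *VCAN* of post-transplant cells differed little by *PRG4*, with ratios of 0.990 and 0.960. In cyAC, too few cells lacked *PRG4* reads to compare.

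Across all cells, aggrecan had a positive correlation with its link protein and with *COL2A1*. In cyAC and cyFT the latter was weak or negative among cells with reads of both genes. Spearman's rho of *ACAN* with *HAPLN1* over 320 cells was 0.15 in pre-transplant cells, 0.40 in post-transplant cells, 0.43 in cyAC and 0.53 in cyFT. With *COL2A1* it was 0.61, 0.45, 0.34 and 0.35. Among cells with reads of both genes, *ACAN* with *HAPLN1* was at 0.12, 0.39, 0.40 and 0.44. *ACAN* with *COL2A1* was at 0.55 over 300 pre-transplant cells and 0.42 over 312 post-transplant cells, but at 0.10 over 279 cells of cyAC and -0.22 over 117 cells of cyFT. Over all cells, *ACAN* with *COL1A1* was at -0.51, -0.30 and -0.27 in the first 3 conditions and 0.25 in cyFT, a positive value in fibrous tissue alone among the 4. Among cells with reads of both, it was at -0.04 over 76 pre-transplant cells, -0.37 over 53 post-transplant cells and 0.39 over 199 cells of cyFT. In cyAC only 18 cells had reads of both, too few for a value.

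*HAPLN1* and *COL2A1* had a rho of 0.72 in cyFT and of 0.12 to 0.22 in the other conditions. Over the 117 cyFT cells with reads of both it was 0.17, and over 278 such cells of cyAC -0.14. *CD44* had a negative rho with *COL2A1* in all 4, from -0.52 in pre-transplant cells to -0.26 in post-transplant cells. *ACAN* and *VCAN* were close to unrelated, between -0.06 and 0.04. Cells of a sample share library, background correction and differences in depth, so these values describe the samples and carry no test.

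**Figure D5:**
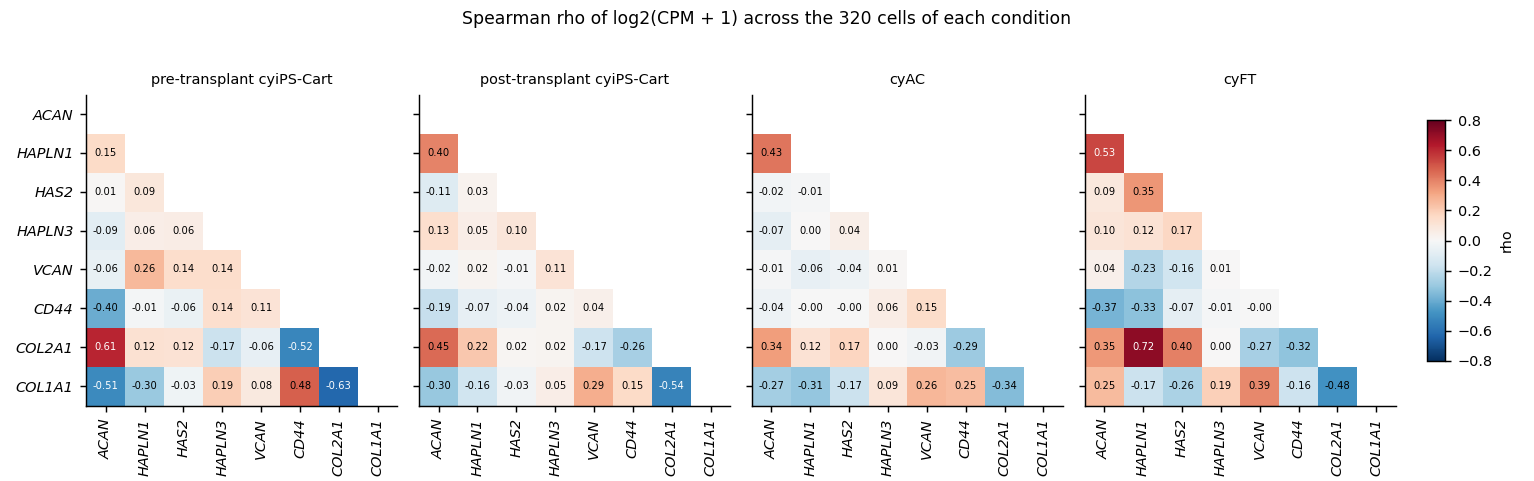
Spearman's rho of log2(CPM + 1) between 6 of the genes and the collagens *COL2A1* and *COL1A1* across the 320 cells of each condition, with the value in each square and color from -0.8 (blue) to 0.8 (red). *ACAN* is positive with *HAPLN1* in all 4 panels, from 0.15 to 0.53, and *CD44* is negative with *COL2A1* in all 4.

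The matrix of correlations can be set beside the genes most like each member. Among 2904 genes, ranked by their lowest rho over the 4 conditions, those most like *ACAN* were *COL11A2* (lowest rho 0.45), *COL9A1* (0.39) and *COL11A1* (0.35), all cartilage collagen genes. For *HAPLN1* they were *S100A1* (0.27), *COL11A1* (0.22) and *COL9A1* (0.20). For *VCAN* they were *COL5A2* (0.16), *THBS2* (0.13) and *FBN1* (0.11), and for *CD44* among 2905 genes *B2M* (0.16), *SNX9* (0.13) and *ARPC1B* (0.12). Over all genes in a single condition, the 95th percentile of rho lay between 0.13 and 0.18 for *ACAN*, 0.11 and 0.12 for *VCAN*, 0.11 and 0.29 for *HAPLN1* and 0.11 and 0.19 for *CD44*.

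Of 49 other genes of the pathway in 7 lists, 45 were listed in the matrices. The largest group of measurable genes supplies the UDP sugars from which hyaluronan is built. From cyiPSC to pre-transplant cyiPS-Cart, 6 of 7 of these genes were higher and 0 lower, beside 18.4% and 38.5% of all genes. From pre- to post-transplant cyiPS-Cart, 5 of 7 were lower and 0 higher, beside 22.1% and 8.16% of all genes. *UAP1*, which makes UDP-N-acetylglucosamine, was at 81.2 CPM in cyiPSC and 633 CPM in pre-transplant cells of the larger matrix, and at 706 CPM in pre-transplant cells, 95.9 in post-transplant cells, 457 in cyAC and 443 in cyFT of the other. *UGDH*, which makes UDP-glucuronic acid, was at 296, 49.8, 328 and 257 CPM in these 4 conditions. *UGP2*, which makes UDP-glucose, was at 1242, 239, 655 and 625 CPM.

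Post-transplant cyiPS-Cart was thus the lowest of the 4 conditions for these 3 genes, while its *HAS2* level was not below that of pre-transplant cells. It was not the lowest for *GFPT1* of the same list, at 57.8 CPM against 41.9 in cyAC and 46.4 in cyFT. Reads of *UAP1* were found in 53.1% of post-transplant and 94.7% of pre-transplant cells. How many of the zeros the background correction made was not tested. Post-transplant cells had 5 of 7 genes of this list lower than cyAC and 6 of 7 lower than cyFT, beside 17.8% and 21.4% of all genes. The medians of log2 ratios were -1.46 and -1.69 beside -0.13 and -0.29 for all genes. Between cyFT and cyAC, 1 of 6 tested genes was higher and 0 lower, beside 7.06% and 3.73% of all genes. It was *GFPT2*, which encodes an enzyme of the hexosamine pathway, at 236 against 109 CPM. These sets compare across libraries except the first and the last.

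Among genes of hyaluronan breakdown, *CEMIP2*, a cell surface protein linked to hyaluronan degradation, was at 56.4 CPM in pre-transplant cells, 8.21 in post-transplant cells, 142 in cyAC and 49.2 in cyFT. *HYAL1*, a lysosomal hyaluronidase, was at 71.1 CPM in cyFT and 31.0 CPM in cyAC. Of the breakdown list, 1 gene passed the filter in each comparison except cyFT with cyAC, where both of these passed, *HYAL1* as higher and *CEMIP2* as lower in cyFT.

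Other hyaluronan receptors and binders mostly failed the filter, with 1 to 4 of 13 tested. *HMMR*, a receptor known from dividing cells, was at 123 CPM in cyiPSC and 7.33 CPM in pre-transplant cells, and *LAYN*, a membrane receptor, at 14.9 and 104 CPM. *ITIH5*, a chain of the inter-alpha-trypsin inhibitor family, was at 59.7 CPM in cyFT and 13.1 CPM in cyAC. *LYVE1* and *STAB1*, hyaluronan receptors of macrophages and lymphatic or sinusoidal endothelium, were named after their values were seen. They were at 125 and 106 CPM in cyFT, where reads came from 14 and 18 of the 320 cells. All 14 and all 18 of these cells had *CD44* reads and reads of at least 3 markers of other cell types, and they held 33.0% and 36.0% of the *CD44* reads of cyFT.

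The ligands of the lectican C-type lectin domain held the tenascin gene *TNC*, at 7.43 CPM in cyiPSC and 2543 CPM in pre-transplant cells. In the matrix of 4 conditions it was at 2412, 2718, 771 and 2521 CPM, lowest in cyAC. *FBN1*, the gene of the microfibril protein fibrillin, was at 203 CPM in post-transplant cells and 87.4 CPM in cyAC. Of the genes of the fibulins, extracellular matrix glycoproteins, *FBLN1* was at 57.0, 51.4, 95.6 and 33.4 CPM in pre-transplant cells, post-transplant cells, cyAC and cyFT, past 2-fold lower in cyFT than in cyAC (log2 ratio -1.49). *FBLN2* was at 119, 24.5, 43.9 and 66.7 CPM in the same order, past 2-fold lower in post-transplant than in pre-transplant cells (log2 ratio -2.23). On the cell side of CD44, *EZR*, the gene of ezrin, which links membrane proteins to actin, was at 403, 82.1, 202 and 513 CPM in the 4 conditions, and *MSN*, which encodes moesin, at 460, 175, 477 and 566 CPM. Post-transplant cells were the lowest for both. *RDX*, the gene of the related radixin, was at 151, 135, 127 and 189 CPM, with cyAC the lowest, and within 2-fold in every comparison of these 4 conditions.

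None of the other lecticans and link proteins (*BCAN*, *NCAN*, *HAPLN2* and *HAPLN4*) and none of 6 lectican-cleaving ADAMTS proteases passed the filter in any comparison. *ADAMTS4*, an aggrecanase, was listed at 0 in all 4 conditions, and *ADAMTS1* reached 35.4 CPM in cyFT. Over all 7 lists, 11 of 18 genes tested were higher and 2 lower from cyiPSC to pre-transplant cells, where 18.4% and 38.5% of all genes were. From pre- to post-transplant cells 0 of 19 were higher and 10 lower, beside 8.16% and 22.1% of all genes. In post-transplant cells 2 of 15 were higher and 8 lower than in cyAC, beside 10.8% and 17.8%, and 0 of 19 were higher and 10 lower than in cyFT, beside 7.85% and 21.4%. In cyFT 5 of 19 were higher and 2 lower than in cyAC, beside 7.06% and 3.73%.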

How the data were processed

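The authors mapped TAS-Seq reads with Bowtie2 to monkey transcripts of Ensembl (cDNA and ncRNA), split pooled libraries by hashtag, replaced counts taken as background in highly expressed genes with 0, filtered cells on mitochondrial share, and deposited the resulting counts per gene and cell in 2 matrices. The submitters' processing notes name cutadapt 3.4, Bowtie2 2.4.2 and R 3.6.3, and give the human build GRCh38 while the methods name the monkey sequences. No step that counts molecules is described, so the counts were taken as reads. The 3 hashtag libraries were not used here.

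Reads were summed per condition and divided by all listed reads (CPM). Ratios (log2, CPM + 1) were taken for genes that reached 50 CPM and had reads in 25% of cells or more in either condition. Cells are not replicates, and no test between conditions was run, since each is 1 sample. For shares at equal depth, cells were thinned to the 10th percentile of the shallowest sample. Genes named beside the 7 came from 7 pathway lists, and most were past 2-fold in a comparison or define a list. Not every gene past 2-fold is named, and *LYVE1*, *STAB1* and *ADAMTS1* are named though they passed the filter in no comparison. For *ACAN*, *VCAN*, *HAPLN1* and *CD44*, the 3 genes with the highest lowest rho over the 4 conditions were named too. The 7 genes, the lists and the comparisons were chosen with earlier results of these data known. The marker lists hold pluripotency, chondrocyte, fibroblast, immune, macrophage, T cell, endothelial, mural and cycling genes. Alternatives were other scalings (mean of cells' CPM, no mitochondrial genes, TMM), pseudocounts of 0.1 and 10, filters of 10 and 100 CPM, no filter on the share of cells, a stricter cell filter (500 genes or more, mitochondrial share under 3 MADs over the median), leaving out scrublet doublets or cells with at least 3 markers of other cell types, and the larger set of pre-transplant cells. The setting without cells with markers of other cell types left out 2131 cyiPSCs and kept 369, so in cyiPSC it does not single out other cell types. Scrublet marked 13 of the cyiPSCs and 0 pre-transplant cells of the larger matrix, too few for it to count as having worked. It marked 7, 10, 3 and 2 cells in the matrix of 4 conditions, and marked cells were kept. Sums, ratios, thinning and intervals were checked on simulated counts. Python 3.11.15 with numpy 2.4.6, scipy 1.17.1, pandas 2.3.3 and scanpy 1.11.5 was used, and R 4.3.3 with edgeR 4.0.16 for the TMM factors.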

Additional observations from a re-analysis of the deposited data

How the results depend on the processing

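The counts of genes past 2-fold, which do not say which genes they hold, were within 1.5 times the reported ones in 52 of 56 planned settings. The 4 others all concern post-transplant cyiPS-Cart against cyFT, where 1 gene in place of 2 was counted with CPM without mitochondrially encoded genes, with a pseudocount of 10, under the stricter cell filter and without scrublet doublets. Each lost *VCAN*, whose log2 ratio of 1.02 ranged from 0.73 to 1.32 and was under 2-fold in 6 of 8 settings. With the mean of cells' CPM and without cells with markers of other cell types *VCAN* was lost as well, but *HAPLN3* went past 2-fold (log2 ratio as low as -1.06), so the count stayed at 2 with different genes. Among COL2A1-only cells, a setting added after the data were seen, 1 gene was counted from pre- to post-transplant cells. Of all genes, 8.67% were higher and 21.9% lower there. Between cyFT and cyAC 0 were counted, beside 6.29% of all genes higher and 5.21% lower. The *VCAN* log2 ratio of cyFT over cyAC reversed from 2.49 to -1.84, at levels under 50 CPM in both, so that it was not counted. The cause was not tested. None of the planned settings reversed a log2 ratio past 2-fold. Single values moved more often than the counts of genes. In planned settings, 123 of 270 log2 ratios and 79 of 126 shares of cells moved beyond their counting error. Of 771 correlations, 122 moved by more than 0.1. *HAPLN3* in cyFT over cyAC went under 2-fold with TMM scaling and with a pseudocount of 10, and *ACAN* in post-transplant cells over cyFT went past it with TMM scaling. *CD44* in post-transplant cells against cyAC failed the filter on shares under the stricter cell filter (log2 ratio -4.37) and also without cells with markers of other cell types. No paired analysis was possible because each condition is 1 sample and the labels give no replicate numbers that conditions share. Few reads limit the values of *HAS3*, and 1 sample per condition limits all values.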
